A study of Mus musculus with 29 samples.

Results

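The endosomal Toll-like receptors (TLRs) that sense nucleic acids and the proteins they depend on were followed across sorted mouse macrophages with and without RNase T2. The members were chosen by gene symbol, and 9 of 9 were found among the 23930 genes of the deposited table. They are the receptors Tlr3, Tlr7, Tlr8, Tlr9 and Tlr13, the chaperones Unc93b1 and Cnpy3, and the lysosomal transporters Slc15a3 and Slc15a4. The paper reports that mice lacking RNase T2 had enlarged spleens and livers and few platelets, and that loss of Unc93b1 or Tlr13 prevented this. From such crosses, antibiotic treatment, reporter cells and other experiments it proposes TLR13 as the receptor behind macrophage accumulation in these mice. By antibody staining it found TLR13 protein in Ly6Chi and Ly6Clow macrophages of spleen and liver and in Kupffer cells. All mice were on the C57BL/6 background, and no treatment was given. Rnaset2-/- mice lack both Rnaset2a and Rnaset2b in every cell, and these mice were compared with wild-type mice. The methods name mice of both sexes, the ages were not given in the sources used here, and whether replicates are single animals or pools is not stated, so that p-values measure only the spread between libraries. Splenic Ly6Chi macrophages (CD11b+, Ly6G-, SiglecF- and NK1.1-) gave 3 wild-type and 3 Rnaset2-/- libraries. Splenic Ly6Clow macrophages, which were also Fcgr4+, gave 3 wild-type and 4 Rnaset2-/- libraries. Hepatic Ly6Chi and Ly6Clow macrophages gave 3 libraries each from both genotypes. Kupffer cells (KCs) came from wild-type livers in 4 libraries. The labels describe them as F4/80+ Tim4+ PDCA-1 low cells with intermediate CD11b, whereas the methods of the study sort KCs by F4/80 and low CD11b without naming Tim4.

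Endosomal TLRs are made in the endoplasmic reticulum, where CNPY3 works with the chaperone GP96 (the product of Hsp90b1) to fold most of them. UNC93B1 binds the folded receptors and carries them to endosomes and lysosomes, where proteases such as the cathepsins cut their luminal part. TLR3 binds double-stranded RNA, TLR7 and TLR8 bind products of RNA breakdown, TLR9 binds DNA with CpG motifs, and TLR13 binds bacterial ribosomal RNA. According to the paper, TLR8 works in humans but not in mice, and TLR13 in mice but not in humans. The Tlr8 values given here are RNA levels and do not measure sensing by the receptor. TLR3 signals through TRIF and the others through MyD88. SLC15A3 and SLC15A4 carry histidine and small peptides out of lysosomes, and SLC15A4 is known for its role in TLR7 and TLR9 responses. RNase T2 is a lysosomal RNase that degrades RNA in the compartment where these receptors work.

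In GENCODE vM21 (mm10), 3 of the 5 receptors lie on the X chromosome: Tlr13 at chrX:106143204-106160493 on the plus strand, Tlr8 at chrX:167242696-167264329 and Tlr7 at chrX:167304929-167330558, both on the minus strand. The other receptors are Tlr3 at chr8:45395665-45411080 (minus strand) and Tlr9 at chr9:106222598-106226883 (plus strand). The chaperone genes are Unc93b1 at chr19:3935186-3949340 (plus strand) and Cnpy3 at chr17:46735705-46752214 (minus strand). Slc15a3 lies at chr19:10839727-10859362 on the plus strand and Slc15a4 at chr5:127595664-127632897 on the minus strand.

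Promoter sequences were found in RefSeq (GRCm38.p6) for 6 of the 9 members. Tlr7, Unc93b1 and Slc15a3 were not matched. The 150 bases before the RefSeq start were searched on both strands for GAGGAA, the core that the myeloid factor PU.1 recognises. Of the 6 members, 4 held it in at least 1 promoter (Tlr8, Tlr9, Tlr13 and Cnpy3). Of 32851 promoters, 14.5% held it in windows of the same length. Members were counted by gene and the background by promoter, of which a gene may have more than 1, so these shares are in unlike units. The interferon-stimulated response element was in 0 of the 6 and in 1.59% of all promoters. The lysosomal CLEAR element, searched as TCACGTG, was in 0 of the 6 and in 2.36% of all promoters. The sequences of the 3 receptors that hold the core are given because their levels moved in different directions in the comparisons that follow. Capitals mark GAGGAA or its reverse complement. The core lies 77, 112 and 83 bases before the RefSeq start of Tlr8, Tlr9 and Tlr13. The windows are chrX:167264330-167264479 (minus strand) for Tlr8, chr9:106222448-106222597 (plus strand) for Tlr9 and chrX:106143125-106143203 (plus strand) for Tlr13, whose window stops at the GENCODE start, upstream of that of RefSeq.
Tlr8: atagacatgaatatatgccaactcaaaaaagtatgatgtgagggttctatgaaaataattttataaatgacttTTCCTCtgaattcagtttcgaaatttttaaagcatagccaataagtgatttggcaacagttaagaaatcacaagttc
Tlr9: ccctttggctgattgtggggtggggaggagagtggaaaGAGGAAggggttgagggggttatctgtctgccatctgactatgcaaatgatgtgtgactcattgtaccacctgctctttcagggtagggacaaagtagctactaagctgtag
Tlr13: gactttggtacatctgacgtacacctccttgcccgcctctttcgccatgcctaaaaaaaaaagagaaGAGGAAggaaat
A match describes the letters of the window and does not show that the factor binds there.

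The AmpliSeq method amplifies 1 short target per gene, and values are RPM, read counts scaled to a common library total. RPM values of different genes were therefore not compared with each other. The libraries held 11175843 to 21167602 reads, so that 3 reads corresponded to 0.142 to 0.268 RPM. All 9 members were above that in every library, and the fewest reads behind a value were 21 for Tlr3 and 161 for Tlr13. The splenic Ly6Chi libraries from Rnaset2-/- mice held 20404155 to 21167602 reads, and every other library held at most 14572065. Genotype and depth can therefore not be told apart in the comparison of splenic Ly6Chi macrophages. In sorted bulk samples, fewer cells of a type and less RNA per cell cannot be told apart. The 6 general macrophage and monocyte markers were detected in every group. Marker sums of other cell types differed between groups. The sum of 7 KC markers was between 5875 and 11102 RPM in hepatic Ly6Clow macrophages from Rnaset2-/- mice and between 118 and 165 RPM in those from wild-type mice. In these Rnaset2-/- libraries Cd5l, which encodes the secreted protein AIM, made up most of the sum (5478 to 9639 RPM), and Clec4f, which defines KCs, was between 17.7 and 63.3 RPM, against 1674 to 5471 RPM in KCs. Of the 4 KC libraries, replicate 3 stood apart, with a KC marker sum of 6571 RPM against 17205 to 19090 RPM in the others. Hepatic Ly6Chi replicate 1 from Rnaset2-/- mice had a sum of Ly6C-low monocyte markers of 2013 RPM, against 7290.0 and 7391 RPM in the other replicates. The X-linked Xist and the Y-linked genes separated the genotypes in the liver. Xist was at most 0.154 RPM in all hepatic Rnaset2-/- libraries and between 321 and 539 RPM in wild-type hepatic Ly6Chi and Ly6Clow libraries. The Y-linked genes summed to between 150.1 and 291 RPM in the former and to between 0 and 52.03 RPM in the latter. Genotype and sex can therefore not be told apart in the liver. Some wild-type hepatic libraries held transcripts of both sexes. In Ly6Chi replicates 2 and 3, Xist was 539 and 321 RPM and the Y-linked genes summed to 28.95 and 41.4 RPM. In Ly6Clow replicates 2 and 3, Xist was 375 and 445 RPM and the Y-linked genes summed to 52.03 and 51.99 RPM. Whether these libraries were pools of animals was not tested. In the spleen, Ly6Clow replicate 2 from Rnaset2-/- mice, with 0.781 RPM of Xist, stood alone among libraries with at least 352 RPM.

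Across the 9 groups, Tlr3 had the widest range of group means among the 5 receptors and Tlr7 the narrowest. The ratio of the highest to the lowest group mean was 20.5 for Tlr3, 7.34 for Tlr13, 5.005 for Tlr9, 3.92 for Tlr8 and 3.63 for Tlr7. For the partners it was 7.66 for Slc15a3, 4.43 for Unc93b1, 3.59 for Slc15a4 and 2.07 for Cnpy3.

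**Figure D1:**
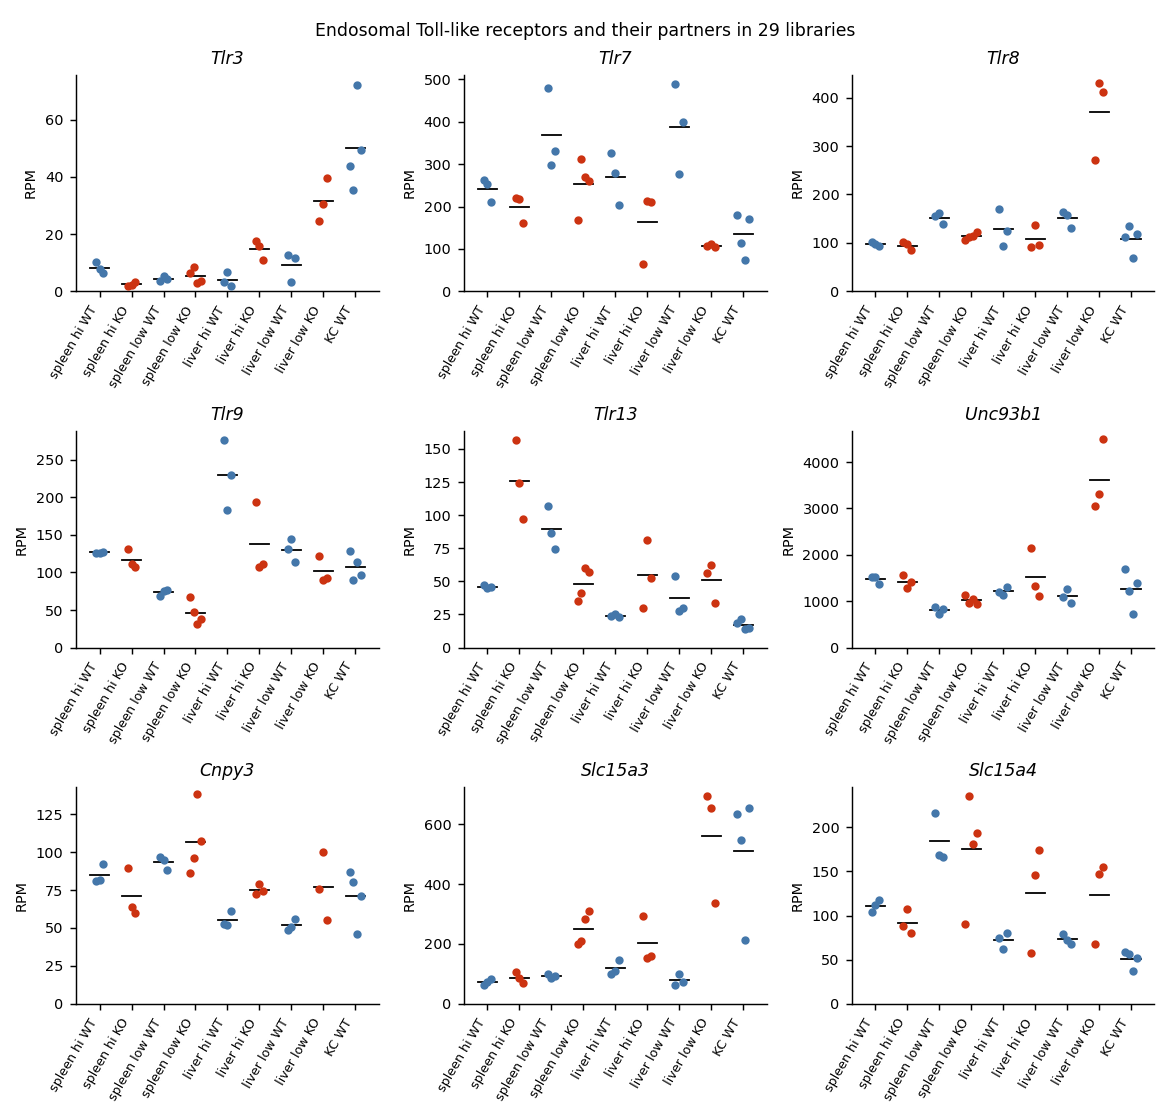
RPM of the 9 members in each of 29 libraries, 1 panel per gene with its own axis from 0. Blue points are wild-type (WT) and red points Rnaset2-/- (KO) libraries, and black lines are group means. Tlr13 was highest in splenic Ly6Chi macrophages from Rnaset2-/- mice (mean 126 RPM), and Unc93b1 and Tlr8 were highest in hepatic Ly6Clow macrophages from Rnaset2-/- mice (means 3614 and 371 RPM).

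Tlr13 had its highest group mean in splenic Ly6Chi macrophages from Rnaset2-/- mice (126 ± 29.8 RPM, SD, n = 3), followed by splenic Ly6Clow macrophages from wild-type mice (89.4 ± 16.5 RPM, n = 3). The lowest means were 24.05 ± 1.38 RPM in wild-type hepatic Ly6Chi macrophages (n = 3) and 17.2 ± 3.59 RPM in KCs (n = 4). The neighbours in this order overlapped down to wild-type hepatic Ly6Clow macrophages (37.3 ± 14.5 RPM, n = 3), and only the last 2 groups were each below all libraries of the group before them. Unc93b1 had a mean of 3614 ± 768 RPM in hepatic Ly6Clow macrophages from Rnaset2-/- mice (n = 3), and the other 8 groups had means between 817 and 1526 RPM. Slc15a3 was highest in the same group (561 ± 196 RPM, n = 3) and in KCs (512 ± 206 RPM, n = 4), which overlapped, and lowest in wild-type splenic Ly6Chi macrophages (73.3 ± 9.90 RPM, n = 3). Tlr3 was highest in KCs (50.2 ± 15.7 RPM, n = 4) and Tlr7 in wild-type hepatic Ly6Clow macrophages (389 ± 107 RPM, n = 3). Tlr9 was highest in wild-type hepatic Ly6Chi macrophages (229.7 ± 46.7 RPM, n = 3). Tlr8 was highest in hepatic Ly6Clow macrophages from Rnaset2-/- mice (371 ± 86.4 RPM, n = 3), and its other group means lay between 94.7 and 152 RPM. Slc15a4 ranged from 184 ± 28.4 RPM in wild-type splenic Ly6Clow macrophages (n = 3) to 51.2 ± 9.70 RPM in KCs (n = 4). Cnpy3 had the smallest range, from 107 ± 22.7 RPM in splenic Ly6Clow macrophages from Rnaset2-/- mice (n = 4) to 51.8 ± 3.65 RPM in wild-type hepatic Ly6Clow macrophages (n = 3).

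Genotypes were compared within each organ and subset. Changes are log2 fold changes (Rnaset2-/- minus wild-type) on the scale of log2(scaled RPM + 1) with their SE, and adjusted p are from limma with Benjamini-Hochberg adjustment over all genes tested. A gene was counted as changed at more than 1.5-fold with an adjusted p below 0.05. All 9 members passed the filter on low values in all 16 comparisons.

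In splenic Ly6Chi macrophages, Tlr13 was higher and Tlr3 lower in Rnaset2-/- mice, and the other 7 members did not pass the test. This is 2 of 9 members, against 22.2% of 10398 genes tested. Tlr13 was 47.1, 44.8 and 45.5 RPM in wild-type libraries and 157, 124 and 97.01 RPM in Rnaset2-/- libraries. The groups did not overlap, and even the lowest Rnaset2-/- library was well above the wild-type libraries. The change was 1.53 ± 0.15, or 2.89-fold (adjusted p = 5.64e-05). Tlr3, the receptor for double-stranded RNA, was 10.3, 7.98 and 6.37 RPM in wild-type and 1.75, 2.35 and 3.23 RPM in Rnaset2-/- libraries. It fell by 1.33 ± 0.22 on the log2 scale (adjusted p = 0.00116), again with no overlap between genotypes. The remaining receptors were at -0.16 ± 0.14 for Tlr7 (adjusted p = 0.401), 0.07 ± 0.10 for Tlr8 (0.648) and -0.01 ± 0.10 for Tlr9 (0.947). Among the partners, Unc93b1 was at 0.06 ± 0.11 (adjusted p = 0.711), Cnpy3 at -0.15 ± 0.14 (0.417), Slc15a3 at 0.34 ± 0.16 (0.115) and Slc15a4 at -0.16 ± 0.13 (0.337). The libraries of the 2 genotypes overlapped for all 7. Neutrophil markers were also higher in Rnaset2-/- libraries (5 of 9, summed 32706 to 57456 RPM against 30306 to 32548 RPM). Markers of plasmacytoid dendritic cells were lower (4 of 4 tested, 18.3 to 26.2 RPM against 92.5 to 99.7 RPM), as were those of T or NK cells (6 of 7) and type 1 conventional dendritic cells (4 of 5). Ly6C-low monocyte markers were higher (3 of 7, 3763 to 4129 RPM against 3634 to 3719 RPM), as was 1 of 3 tested Ly6C-high monocyte markers. Their part in the result was not tested.

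In splenic Ly6Clow macrophages, Slc15a3 was higher and Tlr13 lower in Rnaset2-/- mice, which is 2 of 9 members, against 8.35% of 10295 genes tested. The transporter gene Slc15a3 was 98.9, 84.96 and 91.3 RPM in wild-type libraries and 200.2, 211, 282 and 309 RPM in Rnaset2-/- libraries. All Rnaset2-/- libraries were above the wild-type range. The change was 1.43 ± 0.19, or 2.69-fold (adjusted p = 0.00521), and with no filter on low values its adjusted p was 0.066. Tlr13 was 107, 86.5 and 74.5 RPM in wild-type and 35.2, 41.4, 60.1 and 56.7 RPM in Rnaset2-/- libraries. The groups did not overlap, and the change of -0.88 ± 0.23 was just past the threshold (adjusted p = 0.0493). This call was lost in 9 of 16 alternatives, where adjusted p reached 0.219. Among them were the omission of wild-type replicate 1, 2 or 3 and of Rnaset2-/- replicate 2 or 4, with changes of -0.75, -0.90, -0.998, -0.81 and -0.988. Rnaset2-/- replicate 2 is the library with almost no Xist. Tlr9 and Tlr8 were below the wild-type range in all Rnaset2-/- libraries and missed the threshold, at -0.71 ± 0.21 (adjusted p = 0.0644) and -0.42 ± 0.12 (0.0668). Without Rnaset2-/- replicate 1, Tlr9 passed at -0.88 (adjusted p = 0.00616). Tlr7 was at -0.54 ± 0.25 (adjusted p = 0.179) and Tlr3 at 0.16 ± 0.31 (0.759). Unc93b1 was at 0.33 ± 0.13 (adjusted p = 0.123), Cnpy3 at 0.18 ± 0.18 (0.535) and Slc15a4 at -0.13 ± 0.31 (0.803). Neutrophil markers summed to 38852 and 22301 RPM in Rnaset2-/- replicates 1 and 2, to 4279 and 3337 RPM in replicates 3 and 4, and to between 1047 and 2386 RPM in wild-type libraries. Without replicates 1 and 2, Tlr13 was at -0.53 (adjusted p = 0.0504), Tlr9 at -0.998 (0.00168) and Slc15a3 at 1.74 (3.9e-05). Erythroid markers were also higher in Rnaset2-/- libraries (3 of 3 tested, 30.9 to 683 RPM against 0.912 to 2.47 RPM), and their part in the result was not tested.

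In hepatic Ly6Chi macrophages, Tlr3 was higher and Tlr9 lower in Rnaset2-/- mice, 2 of 9 members against 30.6% of 10957 genes tested. Tlr3 was 3.16, 6.67 and 1.88 RPM in wild-type and 17.6, 15.7 and 10.9 RPM in Rnaset2-/- libraries. The groups did not overlap, and the change was 1.51 ± 0.39 (adjusted p = 0.0234). Tlr9, the receptor for CpG DNA, was 277, 183 and 229 RPM in wild-type and 193, 108 and 111 RPM in Rnaset2-/- libraries. The groups overlapped in 1 library, and the change was -1.09 ± 0.32 (adjusted p = 0.0347). Tlr13 was 23.5, 25.6 and 22.99 RPM in wild-type and 29.6, 81.6 and 52.5 RPM in Rnaset2-/- libraries. Although all Rnaset2-/- libraries were above the wild-type libraries in RPM before scaling, the scaled Tlr13 change of 0.73 ± 0.30 missed the threshold (adjusted p = 0.103). The unscaled RPM were also all higher for Cnpy3 (72.6 to 78.9 against 51.6 to 60.9 RPM) and Slc15a3 (152 to 295 against 101 to 147 RPM). Tlr7 was at -1.198 ± 0.40 (adjusted p = 0.0539) and Tlr8 at -0.55 ± 0.27 (0.154). The partners were at -0.04 ± 0.33 for Unc93b1 (adjusted p = 0.931), 0.13 ± 0.17 for Cnpy3 (0.584), 0.38 ± 0.33 for Slc15a3 (0.409) and 0.33 ± 0.34 for Slc15a4 (0.484). The count of members rested on single libraries. It was 5 without Rnaset2-/- replicate 1, 1 without replicate 3 and 0 without replicate 2, and it was 0 without wild-type replicate 1 or 3. At an unadjusted p below 0.05, limma counted 2 to 4 members in the settings with 0 calls, while edgeR called 1 and DESeq2 4 with all libraries. Without Rnaset2-/- replicate 1, Tlr13 (1.04, adjusted p = 0.0043), Slc15a4 (0.76, adjusted p = 0.00962) and Tlr7 (-0.69, adjusted p = 0.0203) passed the test. The Tlr3 call was lost when replicate 1 (1.46) or 3 (1.19) of the wild-type libraries was left out, or replicate 2 (1.47) of the Rnaset2-/- libraries. The Tlr9 call was lost when replicate 1 (-0.94) or 3 (-1.07) of the wild-type libraries was left out, or replicate 2 (-0.92) or 3 (-0.90) of the Rnaset2-/- libraries. On RPM as deposited, with no scaling factors, the median of all genes was shifted to 0.31 on the log2 scale. Sinusoidal endothelial markers (6 of 6, 227 to 1979 RPM against 39.8 to 74.4 RPM), T or NK cell markers (7 of 7), B cell markers (5 of 5 tested) and KC markers (4 of 6 tested) were higher in Rnaset2-/- libraries. Ly6C-high monocyte markers were lower (2 of 3 tested, 921 to 1005 RPM against 1789 to 2146 RPM). Their part in the result was not tested.

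In hepatic Ly6Clow macrophages, 5 of 9 members changed, against 42.7% of 10808 genes tested, the highest such share of the 4 genotype comparisons. Slc15a3, Tlr3, Unc93b1 and Tlr8 were higher and Tlr7 lower in Rnaset2-/- mice. The paper proposes that hepatic Ly6Clow macrophages of Rnaset2-/- mice are monocyte-derived KCs, so genotype and cell type cannot be told apart here. Slc15a3 was 62.4, 98.6 and 72.3 RPM in wild-type libraries and 693, 654 and 336 RPM in Rnaset2-/- libraries. The lowest Rnaset2-/- library was still above the highest wild-type library, and the change was 2.75 ± 0.30, or 6.73-fold (adjusted p = 0.000247). Unc93b1, the carrier of all 5 receptors, was 1099.7, 1268 and 967 RPM in wild-type and 3042, 3314 and 4488 RPM in Rnaset2-/- libraries. It rose by 1.65 ± 0.24, or 3.13-fold (adjusted p = 0.00103). Tlr8 was 164, 158 and 130.1 RPM in wild-type and 272, 429.6 and 411 RPM in Rnaset2-/- libraries. Tlr7, its neighbour on the X chromosome, went the other way, with 490.4, 278 and 399 RPM in wild-type and 106, 112 and 104 RPM in Rnaset2-/- libraries. The change was 1.23 ± 0.21 for Tlr8 (adjusted p = 0.00244) and -1.85 ± 0.20 for Tlr7 (adjusted p = 0.000277), and for neither gene did the groups overlap. Tlr3 was 12.7, 3.31 and 11.8 RPM in wild-type and 24.4, 30.7 and 39.7 RPM in Rnaset2-/- libraries, a change of 1.77 ± 0.43 (adjusted p = 0.0113). Tlr13 was 54.1, 27.8 and 30.1 RPM in wild-type and 56.3, 62.6 and 33.9 RPM in Rnaset2-/- libraries. Its groups overlapped, and the adjusted p of the change of 0.42 ± 0.29 was 0.278. Tlr9 was at -0.40 ± 0.18 (adjusted p = 0.114), Cnpy3 at 0.48 ± 0.21 (0.0995) and Slc15a4 at 0.62 ± 0.30 (0.133). Slc15a4 passed without Rnaset2-/- replicate 1 (1.01, adjusted p = 0.00183) and Cnpy3 without replicate 3 (0.68, adjusted p = 0.0224). The KC marker sums given above moved with this comparison (5 of 7 markers higher), as did B cell markers (4 of 4 tested, 104 to 372 RPM against 25.9 to 30.1 RPM), erythroid markers (3 of 3 tested, 51.0 to 142 RPM against 0.828 to 4.10 RPM) and T or NK cell markers (3 of 5 tested, 33.5 to 89.6 RPM against 3.76 to 5.14 RPM). Markers of type 1 conventional dendritic cells summed to between 1524 and 2037 RPM in Rnaset2-/- and between 604 and 823 RPM in wild-type libraries (2 of 6 higher, 1 lower). The 6 general macrophage markers summed to between 4377 and 11420 RPM against 13372 to 18302 RPM (2 higher, 2 lower). Of 7 Ly6C-low monocyte markers, 1 was higher and 3 were lower, and of 3 tested Ly6C-high monocyte markers 2 were lower. Their part in the result was not tested.

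**Figure D2:**
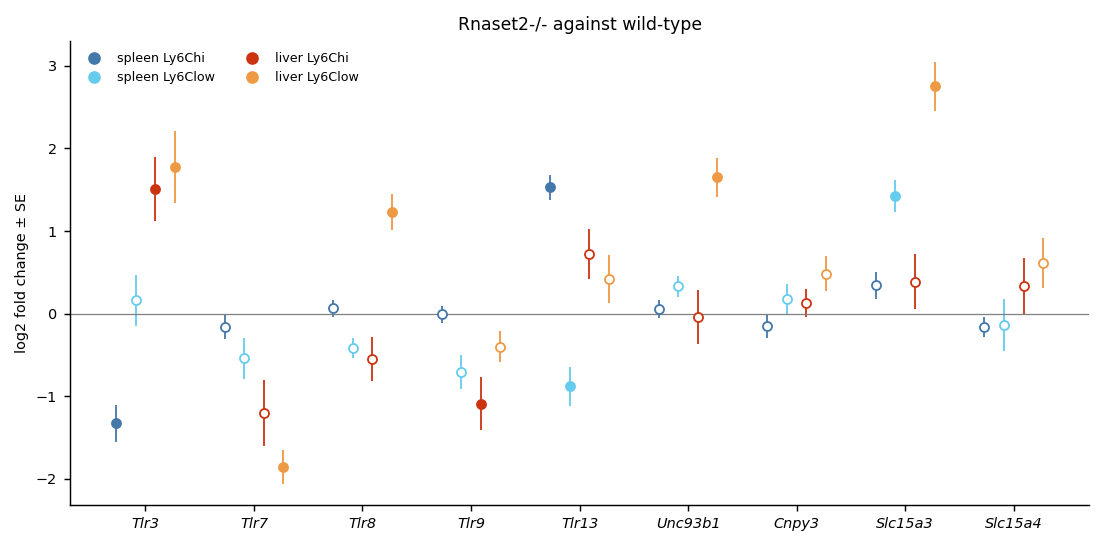
Log2 fold change between Rnaset2-/- and wild-type libraries (y axis) with its SE for the 9 members (x axis) in the 4 macrophage populations, shown by colour. Filled points were called at more than 1.5-fold with an adjusted p below 0.05, and open points were not. Tlr13 was called at 1.53 in splenic Ly6Chi and at -0.88 in splenic Ly6Clow macrophages, and Slc15a3 reached 2.75 in hepatic Ly6Clow macrophages.

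Whether the genotype change itself differed between populations was tested as an interaction in limma. Between the subsets of the spleen, 3 of 9 members differed, against 14.7% of all genes. The Tlr13 change was lower in Ly6Clow than in Ly6Chi macrophages by a log2 difference of -2.43 ± 0.31 (adjusted p = 0.000733). The Tlr3 change was higher by 1.46 ± 0.41 (adjusted p = 0.0308) and the Slc15a3 change by 1.06 ± 0.28 (adjusted p = 0.023). Over left-out libraries the Tlr3 difference ranged from 1.25 to 1.66, and its call was lost without wild-type Ly6Chi replicate 1 or 2, wild-type Ly6Clow replicate 1 or 3, or Rnaset2-/- Ly6Chi replicate 1 or 2 (adjusted p up to 0.0848). The Slc15a3 difference ranged from 0.89 to 1.204 and lost its call without wild-type Ly6Chi replicate 2 or 3, wild-type Ly6Clow replicate 2 or Rnaset2-/- Ly6Chi replicate 3 (adjusted p up to 0.0648). Between the subsets of the liver, 3 of 9 members differed, against 10.3% of all genes. Their changes were higher in Ly6Clow macrophages, by 2.39 ± 0.49 for Slc15a3 (adjusted p = 0.0106), 1.80 ± 0.35 for Tlr8 (adjusted p = 0.00849) and 1.71 ± 0.42 for Unc93b1 (adjusted p = 0.0232). Among the markers that differed in these interactions were erythroid (3 of 3 tested), plasmacytoid dendritic cell (3 of 5 tested) and T or NK cell markers (3 of 7) in the spleen, all higher, and B cell (2 of 5 tested) and type 1 conventional dendritic cell markers (2 of 6) in the liver, all lower. Of 7 Ly6C-low monocyte markers, 2 were lower in the spleen. The part of these markers was not tested. The Unc93b1 difference ranged from 1.46 to 2.07 over left-out libraries, and its call was lost without replicate 1 or 3 of either wild-type subset or without Rnaset2-/- Ly6Chi replicate 2 or 3 (adjusted p up to 0.0647).

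Between the organs, 2 of 9 members differed in Ly6Chi macrophages, against 33.5% of all genes. The Tlr3 change was higher in the liver by 2.87 ± 0.48 (adjusted p = 0.000885), with opposite directions in the 2 organs, and the Tlr9 change was lower by -1.04 ± 0.35 (adjusted p = 0.0361). The Tlr9 difference ranged from -1.39 to -0.86 and its call was lost without any of 9 libraries of 12, with an adjusted p up to 0.0869. They were wild-type spleen replicates 1, 2 and 3, Rnaset2-/- spleen replicates 1 and 2, wild-type liver replicates 1 and 3 and Rnaset2-/- liver replicates 2 and 3. By the same test, the genotype change was also higher in the liver for T or NK cell (7 of 7), sinusoidal endothelial (6 of 6), B cell (5 of 5 tested), KC (6 of 7), plasmacytoid dendritic cell (4 of 6), type 1 conventional dendritic cell (4 of 6) and erythroid markers (3 of 3 tested) in Ly6Chi macrophages. For Ly6C-high monocyte markers it was lower in the liver (3 of 3 tested). Their part in the result was not tested. In Ly6Clow macrophages, 6 of 9 members differed, against 26.8% of all genes. The changes were higher in the liver for Tlr8 (1.65 ± 0.24, adjusted p = 0.000345), Unc93b1 (1.32 ± 0.26, adjusted p = 0.00257), Slc15a3 (1.33 ± 0.37, adjusted p = 0.0175), Tlr13 (1.31 ± 0.39, adjusted p = 0.024) and Tlr3 (1.62 ± 0.57, adjusted p = 0.0483). The Tlr7 change was lower in the liver (-1.30 ± 0.34, adjusted p = 0.0131). Of 13 libraries left out in turn, 8 ended the Tlr3 call (wild-type spleen replicates 1, 2 and 3, Rnaset2-/- spleen replicates 3 and 4, wild-type liver replicate 2 and Rnaset2-/- liver replicates 2 and 3), with differences from 1.098 to 1.89 and an adjusted p up to 0.103. The Tlr13 call was ended by 4 (wild-type spleen replicate 1, wild-type liver replicates 2 and 3 and Rnaset2-/- liver replicate 2), with differences from 1.13 to 1.56 and an adjusted p up to 0.0656. T or NK cell (6 of 6 tested), KC (4 of 7) and B cell markers (3 of 4 tested) had a higher genotype change in the liver here as well. A lower change was found for Ly6C-low (3 of 7) and Ly6C-high monocyte markers (2 of 3 tested). The part of all these markers was not tested. Sex differs between the organs' Rnaset2-/- libraries as described above and cannot be told apart from the organ here. Without the 2 splenic Ly6Clow libraries with high neutrophil markers, the organ difference was 0.95 for Tlr13 (adjusted p = 0.0733) and 1.02 for Slc15a3 (adjusted p = 0.058), and neither passed.

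**Figure D3:**
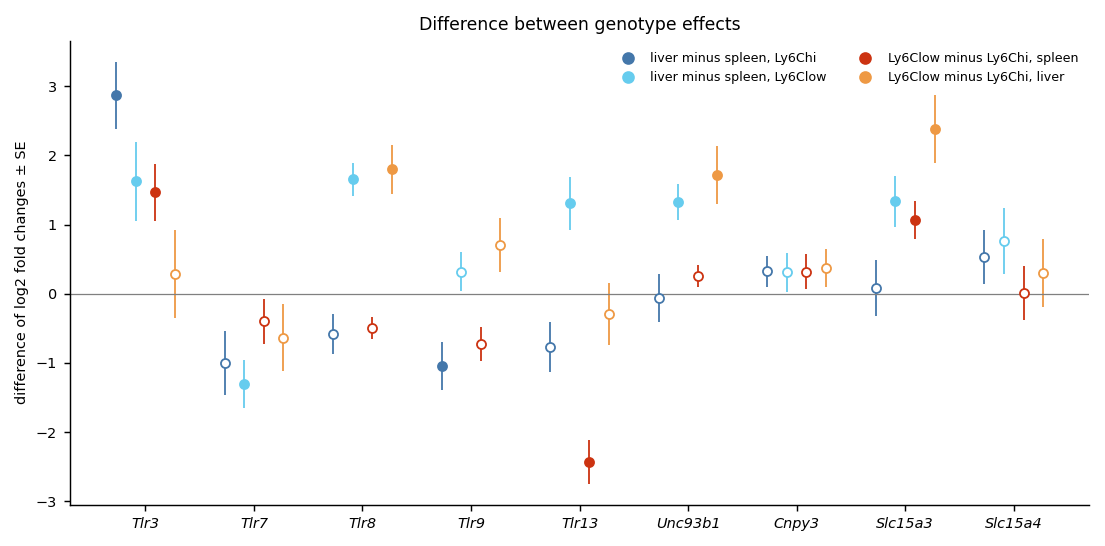
Difference between 2 genotype changes (y axis, difference of log2 fold changes with its SE) for the 9 members (x axis), for 4 pairs of macrophage populations shown by colour. Filled points passed the test of the difference. The Tlr13 point for the spleen lies at -2.43, the lowest of the plot, and the Tlr3 point for Ly6Chi macrophages lies at 2.87, the highest.

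The subsets also differed within a genotype. In the wild-type spleen, 7 of 9 members differed between Ly6Clow and Ly6Chi macrophages, against 33.6% of all genes. Ly6Clow macrophages had more Tlr13 (1.08 ± 0.13, adjusted p = 5.07e-05), Slc15a4 (0.86 ± 0.11, adjusted p = 9.12e-05), Tlr8 (0.78 ± 0.09, adjusted p = 4.62e-05) and Tlr7 (0.73 ± 0.16, adjusted p = 0.00333). They had less Unc93b1 (-0.71 ± 0.09, adjusted p = 0.00013), Tlr9 (-0.64 ± 0.09, adjusted p = 0.000144) and Tlr3 (-0.63 ± 0.21, adjusted p = 0.0274). For all 7, the libraries of the 2 subsets did not overlap, but the share of other called genes for which this holds was not counted. All 9 neutrophil markers were lower in Ly6Clow macrophages (1047 to 2386 RPM against 30306 to 32548 RPM). Markers of T or NK cells (7 of 7, 74.7 to 121 RPM against 552 to 593 RPM), plasmacytoid dendritic cells (4 of 5 tested, 19.7 to 32.1 RPM against 92.5 to 99.7 RPM) and type 1 conventional dendritic cells (3 of 5 tested) were lower too, and their part in the result was not tested. Without wild-type Ly6Clow replicate 1, 4 members were called, with Tlr7 at 0.54, Tlr9 at -0.58 and Tlr3 at -0.49 no longer past the thresholds. The Tlr3 call was also lost without wild-type Ly6Chi replicate 1 (-0.47) or 2 (-0.63) or Ly6Clow replicate 3 (-0.63). In the Rnaset2-/- spleen, 3 of 9 members differed, against 28.1% of all genes. Tlr13 was lower in Ly6Clow than in Ly6Chi macrophages (-1.36 ± 0.25, adjusted p = 0.00552), the reverse of its direction in the wild-type spleen. Tlr9 was also lower (-1.36 ± 0.21, adjusted p = 0.00292), and Slc15a3 was higher (1.53 ± 0.22, adjusted p = 0.00225). With no filter on low values the adjusted p of Tlr13 was 0.0512. Erythroid markers (3 of 3 tested, 30.9 to 683 RPM against 0.33 to 1.81 RPM) and KC markers (3 of 3 tested, 91.1 to 454 RPM against 4.53 to 8.97 RPM) were higher in Ly6Clow macrophages and neutrophil markers were lower (4 of 9), and their part in the result was not tested. Without Rnaset2-/- Ly6Clow replicate 1, or without both libraries with high neutrophil markers, 5 members were called.

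In the wild-type liver, 1 of 9 members differed between the subsets, against 10.1% of all genes. Tlr9 was lower in Ly6Clow macrophages (-0.92 ± 0.20, adjusted p = 0.0189), and this call was lost without wild-type Ly6Chi replicate 1 (-0.74) or 3 (-0.92) or without Ly6Clow replicate 3 (-0.83). Without Ly6Clow replicate 2, 3 members were called. In the Rnaset2-/- liver, 4 of 9 members differed, against 17% of all genes, and all were higher in Ly6Clow macrophages. The changes were 1.92 ± 0.25 for Tlr8 (adjusted p = 0.00598), 1.63 ± 0.40 for Slc15a3 (adjusted p = 0.0347), 1.45 ± 0.39 for Unc93b1 (adjusted p = 0.0447) and 1.204 ± 0.31 for Tlr3 (adjusted p = 0.0391). The count fell to 1 without Ly6Chi replicate 2 or 3 or Ly6Clow replicate 2, and to 2 without Ly6Clow replicate 1 or 3. KC markers were higher in the Ly6Clow libraries in both genotypes, 6 of 6 tested in wild-type and 4 of 7 in Rnaset2-/- mice, and their part in the result was not tested.

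The organs were compared in wild-type mice. Tlr13 was lower in the liver than in the spleen in both subsets. In Ly6Chi macrophages the change was -0.63 ± 0.12 (adjusted p = 0.00164), and in Ly6Clow macrophages it was -1.24 ± 0.22 (adjusted p = 0.00179). The first call was lost in 1 fit of all 29 libraries (-0.58, adjusted p = 0.104) and the second with no filter on low values (adjusted p = 0.0585). Tlr9 was higher in the liver in both subsets, by 1.11 ± 0.16 (adjusted p = 0.000416) and 0.85 ± 0.13 (adjusted p = 0.000705). In Ly6Chi macrophages, 4 of 9 members were called, against 37.8% of all genes, the others being Slc15a3 (0.97 ± 0.17, adjusted p = 0.00124) and Tlr8 (0.64 ± 0.20, adjusted p = 0.0259, with overlapping libraries). The Tlr8 call was lost without spleen replicate 1 (0.65), 2 (0.63) or 3 (0.58) or liver replicate 1 (0.41) or 3 (0.64), with an adjusted p up to 0.0949. In Ly6Clow macrophages, 4 of 9 members were called, against 34.1% of all genes, the others being Slc15a4 (-1.27 ± 0.13, adjusted p = 8.82e-05) and Cnpy3 (-0.80 ± 0.13, adjusted p = 0.000845), both lower in the liver. Neutrophil markers were lower in the liver (7 of 9 in Ly6Chi and 8 of 8 tested in Ly6Clow macrophages), as were T or NK cell markers (7 of 7 and 4 of 4 tested), and sinusoidal endothelial (4 of 5 and 5 of 5 tested) and hepatocyte markers (2 of 2 and 3 of 3 tested) were higher. Their part in the result was not tested.

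KCs differed from wild-type hepatic Ly6Clow macrophages in 7 of 9 members, against 50% of 12515 genes tested. Slc15a3 was 635, 549, 212 and 654 RPM in KCs and was higher there than in Ly6Clow macrophages by 2.01 ± 0.37 (adjusted p = 0.000958). Tlr3 was 43.8, 35.4, 72.2 and 49.3 RPM in KCs and higher by 1.89 ± 0.39 (adjusted p = 0.0021). Tlr7 was lower by a log2 change of -2.16 ± 0.30 (adjusted p = 0.000167), and Tlr13, at 18.2, 21.8, 14.1 and 14.6 RPM in KCs, by -1.60 ± 0.25 (adjusted p = 0.000367). For these 4 genes the libraries did not overlap, and how often this holds among other called genes was not counted. Slc15a4 (-1.11 ± 0.19), Tlr8 (-1.10 ± 0.23) and Tlr9 (-0.86 ± 0.17) were also lower, with adjusted p of 0.000603, 0.00217 and 0.00145. On RPM as deposited the median of all genes was shifted by 0.55 in this comparison, and the calls for these 3 genes were lost. Ly6C-low monocyte markers were lower in KCs (7 of 7, 1276 to 2350 RPM against 9068 to 9972 RPM), and their part was not tested. Markers of several other cell types were higher in KCs. They were those of hepatocytes (5 of 5 tested, 1212 to 4087 RPM against 47.3 to 115 RPM), sinusoidal endothelium (6 of 6, 2314 to 5765 RPM against 85.8 to 274 RPM), B cells (5 of 5 tested, 462 to 860 RPM against 25.9 to 30.1 RPM), T or NK cells (7 of 7, 142 to 368 RPM against 3.76 to 5.14 RPM) and type 1 conventional dendritic cells (4 of 6, 984 to 1482 RPM against 604 to 823 RPM). Their part in the result was not tested.

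Hepatic Ly6Clow macrophages from Rnaset2-/- mice were also set against KCs, and 4 of 9 members differed, against 45.6% of all genes. All 4 were higher in the Rnaset2-/- macrophages. The changes were 2.31 ± 0.27 for Tlr8 (adjusted p = 0.000249), 2.10 ± 0.34 for Unc93b1 (adjusted p = 0.00115), 2.001 ± 0.24 for Tlr13 (adjusted p = 0.000279) and 1.71 ± 0.31 for Slc15a4 (adjusted p = 0.00214). Genotype, cell type and sex differ together in this comparison and cannot be told apart. Markers of hepatocytes (5 of 5 tested), sinusoidal endothelium (6 of 6), B cells (4 of 5 tested), T or NK cells (4 of 7) and KCs (5 of 7) were lower in the Rnaset2-/- macrophages than in KCs. Ly6C-low monocyte markers were higher in them (6 of 7, 6321 to 9410 RPM against 1276 to 2350 RPM). The part of these markers in the result was not tested. With the replicate number as a block, Slc15a3 (0.90, adjusted p = 0.0167) and Cnpy3 (0.66, adjusted p = 0.0304) also passed in limma, giving 6 members. Same-numbered libraries here come from different genotypes and so from different animals, and these 2 calls were not counted. This comparison shares its KC libraries with the one before it and its Rnaset2-/- libraries with the genotype comparison.

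Other genes of the pathway were counted from 4 lists with the same test. In splenic Ly6Chi macrophages, 0 of 8 trafficking genes, 0 of 4 proteases, 1 of 15 adaptors and kinases and 0 of 7 transcription factors passed, against 22.2% of all genes tested. The gene that passed was Irak3, which encodes the inhibitory kinase-like protein IRAK-M, at 251 RPM in Rnaset2-/- and 116 RPM in wild-type libraries (1.204 ± 0.13, adjusted p = 9.65e-05). At an unadjusted p below 0.05 in limma, 3 trafficking genes, 2 proteases and 2 transcription factors were counted, and edgeR and DESeq2 called 0 in these lists. Irak3 was higher in Rnaset2-/- mice in the other populations as well, by 1.34 ± 0.14 in splenic Ly6Clow (adjusted p = 0.0012), 0.67 ± 0.20 in hepatic Ly6Chi (adjusted p = 0.0374) and 1.84 ± 0.15 in hepatic Ly6Clow macrophages (adjusted p = 6.05e-05). In splenic Ly6Clow macrophages, where 8.35% of all genes were called, Ap3d1, a subunit of the adaptor complex AP-3, was the 1 of 8 trafficking genes that passed, at 4.11 RPM against 0.396 RPM, and 0 of 4 proteases and 0 of 7 transcription factors passed (1 and 2 at an unadjusted p below 0.05 in limma, 1 and 1 with DESeq2, 0 and 0 with edgeR). Of 16 adaptors and kinases, Irak3 was higher and Tab2, which links TRAF6 to the kinase TAK1, was lower (-0.62 ± 0.13, adjusted p = 0.0264).

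In hepatic Ly6Chi macrophages, where 30.6% of all genes were called, 1 of 8 trafficking genes was higher and 2 were lower. Ap3d1 was at 1.34 ± 0.33 (2.51 against 0.194 RPM), while Sdcbp was at -1.003 ± 0.27 and the lysosome positioning gene Arl8b at -0.98 ± 0.20. The wild-type Ap3d1 mean lay below the level of 3 reads in these libraries (0.232 to 0.268 RPM). Of 16 adaptors and kinases, 2 were higher and 5 lower. The highest were Irak3 and Ikbkg, the regulatory subunit of the IKK complex (0.65 ± 0.19, adjusted p = 0.033), and the lowest were Chuk, the kinase IKK-alpha (-3.73 ± 0.37, adjusted p = 0.000708), and Irak2 (-1.12 ± 0.25, adjusted p = 0.0128). Chuk had a mean of 25.1 RPM in wild-type and 1.21 RPM in Rnaset2-/- libraries here, and its means in splenic Ly6Chi macrophages were 0.974 and 0.998 RPM, below the filter in both genotypes. In splenic Ly6Clow macrophages they were 3.37 and 1.12 RPM (-0.92 ± 0.38, adjusted p = 0.142), so that the wild-type hepatic groups had the higher means. The NF-kB subunit gene Rel (-2.12 ± 0.39, adjusted p = 0.00695) and Irf7 (-0.92 ± 0.21, adjusted p = 0.0144) were the 2 of 7 transcription factors that were lower, and 0 of 4 proteases passed with limma, also at an unadjusted p below 0.05, with edgeR or with DESeq2.

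In hepatic Ly6Clow macrophages, 4 of 8 trafficking genes and 3 of 4 proteases were higher in Rnaset2-/- mice and none of either list was lower, where 42.7% of all genes were called in either direction. The median change was 0.60 for the trafficking list and 1.16 for the proteases, against 0.01 for all genes. The proteases were legumain (Lgmn, 1.55 ± 0.28, adjusted p = 0.00296), cathepsin B (Ctsb, 1.201 ± 0.19, adjusted p = 0.00175) and cathepsin L (Ctsl, 1.13 ± 0.34, adjusted p = 0.026). Among trafficking genes, Hsp90b1 was 2019 against 891 RPM (1.12 ± 0.23, adjusted p = 0.00491) and Ap3d1 was 3.61 against 0.0873 RPM (1.96 ± 0.36, adjusted p = 0.00328). The wild-type Ap3d1 mean lay below the level of 3 reads (0.248 to 0.268 RPM), so the size of its change depends on the added value of 1. Of 16 adaptors and kinases, 1 was higher (Irak3) and 4 were lower, the lowest being Chuk (0.745 against 22.5 RPM, -3.66 ± 0.38, adjusted p = 0.000217) and Irak2 (-1.45 ± 0.24, adjusted p = 0.00181). Of 7 transcription factors, 2 were lower, Rel (-2.42 ± 0.40, adjusted p = 0.00187) and Nfkb2 (-0.80 ± 0.21, adjusted p = 0.0161). The same marker differences as for the members in this population stand beside these counts.

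**Figure D4:**
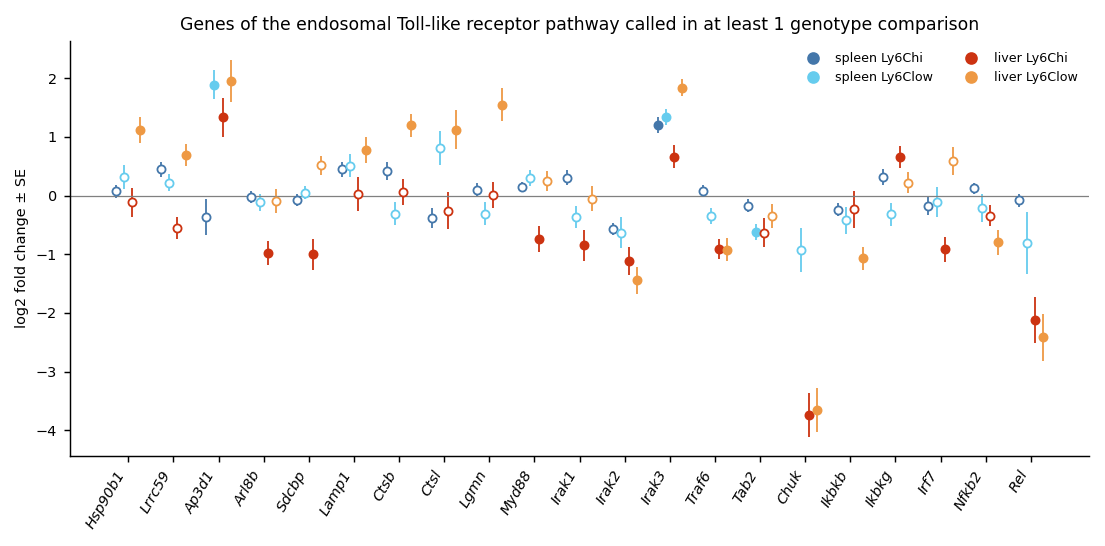
Log2 fold change between Rnaset2-/- and wild-type libraries (y axis) with its SE for the genes of the 4 pathway lists that were called in at least 1 population (x axis), with populations shown by colour. Filled points were called and open points were not. Irak3 was called above 0 in all 4 populations, and Chuk was called at -3.73 and -3.66 in the 2 hepatic subsets.

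The genes whose group means were most like those of Tlr13 across the 9 groups were Slc37a4 (Pearson r = 0.919), G6pdx (0.913), Ncf4 (0.913), Rps6ka1 (0.906) and Eri1 (0.902), among 7840 genes. For Unc93b1 they were Bcat2 (0.957), Ctsh (0.942), Il4ra (0.935), Phf23 (0.926) and Slc25a30 (0.921). These correlations are over 9 group means of log2(RPM + 1), and the genes of a group share its libraries and depth. Among the members, on the same scale, Slc15a3 correlated with Tlr3 at 0.78 and with Tlr7 at -0.81, whereas Tlr13 and Unc93b1 had an r of 0.0059.

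**Figure D5:**
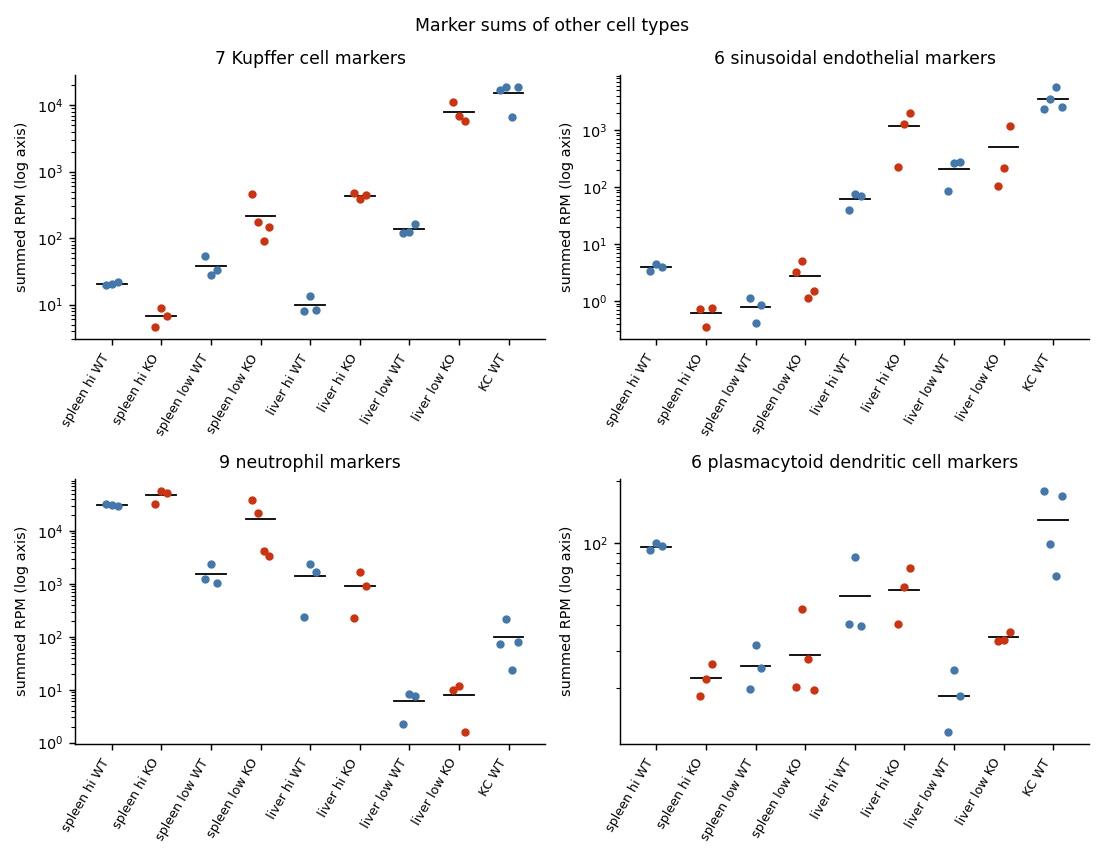
Summed RPM of the markers of 4 other cell types (y axes, log scale) in each of 29 libraries, by group. Blue points are wild-type (WT) and red points Rnaset2-/- (KO) libraries, and black lines are group means. KC markers were between 5875 and 11102 RPM in hepatic Ly6Clow macrophages from Rnaset2-/- mice, and neutrophil markers were between 3337 and 38852 RPM in splenic Ly6Clow macrophages from Rnaset2-/- mice.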

How the data were processed

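The authors made targeted libraries from total RNA of sorted macrophages with an Ion AmpliSeq kit for the mouse transcriptome, sequenced them on an Ion Proton and counted reads per gene with the vendor's software. The deposited table holds RPM values (reads scaled to a common library total, build mm10 per the labels) for 23930 genes in 29 libraries. Of all values, 100% were whole reads within 0.1 reads, which gave the reads behind each value. The authors used DESeq2 after relative log expression (RLE) normalization. Here, RPM were divided by RLE factors of the compared libraries. Genes that reached 1 RPM in 3 or more of them entered limma 3.58.1 (R 4.3.3, lmFit and eBayes with a trend, two-sided) on log2(value + 1), with Benjamini-Hochberg adjustment over all tested genes, and were called at more than 1.5-fold with an adjusted p below 0.05. A call needs the model fitted across genes, since an exact permutation test of 3 against 3 libraries cannot give a p below 0.1. The 16 comparisons were 4 of genotype, 4 of subset, 2 of organ, 2 with KCs and 4 interactions.

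The text gives all 9 members, and from each pathway list and genotype comparison at most the 2 called genes of largest rise and the 2 of largest fall. Likeness was ranked among genes with a mean of at least 10 RPM, 5 genes each for Tlr13 and Unc93b1. The members, lists and markers were chosen with earlier results of these data known, and Clec4f and Cd5l were named after their values were seen. Of the 38 pathway genes listed, Nfkb1 was not analysed here, nor were the RNase T2 genes. Rab7 and Ctsk were below the filter in all genotype comparisons, as was Chuk in splenic Ly6Chi macrophages. No replicates were the same library by a chi-square test of their reads.

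Every main test had group as its only factor, so p-values not said to be from the replicate block are unpaired. The labels do not say what a replicate number marks. Pairing by number was considered possible where every same-numbered pair deviated together with a correlation above 0.1. This held for the subsets of the Rnaset2-/- liver (0.236 to 0.498), for liver against spleen in wild-type Ly6Clow macrophages (0.107 to 0.419) and for hepatic Ly6Clow macrophages from Rnaset2-/- mice against KCs (0.122 to 0.381). Such a correlation does not show that a number marks an animal. The last comparison is between genotypes, with Xist at 0 RPM against 647 to 949 RPM. In wild-type Ly6Clow macrophages, Y-linked genes summed to 52.0 RPM in liver replicates 2 and 3 and to 0 RPM in the spleen.

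The method was tested on simulated counts with 200 changed genes. The dispersion, which sets the spread between replicates beyond counting noise, was 0.05 for all genes. Some groups spread more than that. In hepatic Ly6Chi macrophages from Rnaset2-/- mice, the SD was 52.0% of the mean for Tlr7 and 47.8% for Tlr13. The recovery given here does not describe such groups. In the splenic Ly6Chi comparison (10359 genes), 62 of 89 changes of 1 and 111 of 111 changes of 2 on the log2 scale were recovered, with 9 unchanged genes called. For the organ interaction in Ly6Clow macrophages (11151 genes), 16 of 87 and 109 of 113 were recovered, with 12 unchanged genes called. The alternatives were an added value of 0.1, no filter, RPM without scaling, TMM factors, 1 fit of all 29 libraries, the replicate block, DESeq2 1.42.0 and edgeR 4.0.16 (quasi-likelihood) on recovered reads, no fold threshold, and leaving out each library. Leaving out both splenic Ly6Clow Rnaset2-/- libraries with high neutrophil markers was chosen after seeing the data. Positions come from GENCODE vM21 and promoters from RefSeq.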

Additional observations from a re-analysis of the deposited data

Results flagged for a closer look

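The genotype change differed between populations, by a test of the difference itself, for 14 pairs of member and comparison, given as the difference of log2 fold changes. Liver minus spleen, the differences were 2.87 for Tlr3 and -1.04 for Tlr9 in Ly6Chi macrophages. In Ly6Clow macrophages they were 1.62 for Tlr3, -1.30 for Tlr7, 1.65 for Tlr8, 1.31 for Tlr13, 1.32 for Unc93b1 and 1.33 for Slc15a3. Ly6Clow minus Ly6Chi, they were 1.46 for Tlr3, -2.43 for Tlr13 and 1.06 for Slc15a3 in the spleen, and 1.80 for Tlr8, 1.71 for Unc93b1 and 2.39 for Slc15a3 in the liver. The Tlr13 change in the spleen was in opposite directions in the 2 subsets. No member was an outlier in 18 gene groups of 4 libraries, which chance flags in about 1 in 20 groups.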

How the results depend on the processing

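Of 84 member changes, 42 kept their direction and side of the threshold in every alternative run. Of 1313 recomputed values, 1155 kept both, 127 lost the call, 14 gained it and 17 turned sign.

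The values that turned sign were all of changes that had not been called. In splenic Ly6Chi macrophages, Tlr8 (-0.0516) and Unc93b1 (-0.0618) turned without scaling factors and Tlr9 (0.0096) with TMM factors. Over left-out libraries there, Unc93b1 ranged from -0.00482 to 0.109 and Tlr9 from -0.0834 to 0.0622. In splenic Ly6Clow macrophages, Tlr3 was -0.28 and Slc15a4 0.0979 without both libraries with high neutrophil markers, and over left-out libraries they ranged from -0.0508 to 0.356 and from -0.293 to 0.185. In hepatic Ly6Chi macrophages, Unc93b1 was 0.27 without scaling factors, 0.0494 with DESeq2 and 0.0687 with edgeR, and ranged from -0.38 to 0.22 over left-out libraries. The cause was not tested.

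The lower Tlr13 of splenic Ly6Clow macrophages lost its call with no filter (-0.88), with TMM factors (-0.88), with the replicate block (-0.99) and without both libraries with high neutrophil markers (-0.53), and ranged from -1.01 to -0.71 over left-out libraries. Tlr13 in hepatic Ly6Chi macrophages gained a call in 1 fit of all libraries (0.76) and with DESeq2 (0.84), and ranged from 0.41 to 1.04 over left-out libraries.

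The number of members called moved by over 1.5 times as follows. With no filter, limma called 0 members for splenic Ly6Clow, for hepatic Ly6Chi and for the subsets of the wild-type and of the Rnaset2-/- liver, with 5, 2, 2 and 4 at an unadjusted p below 0.05, and 1, 3, 1 and 1 for the interactions of organ in Ly6Chi, organ in Ly6Clow, subset in spleen and subset in liver. In 1 fit of all 29 libraries it was 4 for hepatic Ly6Chi, 3 and 5 for the subsets of the wild-type and the Rnaset2-/- spleen and 1 for the interaction of subset in spleen. DESeq2 called 4 for hepatic Ly6Chi, 2 for the subsets of the wild-type liver and 6 for those of the Rnaset2-/- spleen. edgeR called 1 for hepatic Ly6Chi, 2 for the subsets of the Rnaset2-/- liver and 1 for the interaction of organ in Ly6Chi. Without scaling factors it was 1 for hepatic Ly6Chi and 4 for KCs, with TMM factors 1 for splenic Ly6Clow, and without both libraries with high neutrophil markers 5 for the subsets of the Rnaset2-/- spleen.

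Over left-out libraries the counts ranged from 1 to 3 in splenic Ly6Clow, 0 to 5 in hepatic Ly6Chi, 4 to 7 and 3 to 5 for the subsets of the wild-type and Rnaset2-/- spleen, 0 to 3 and 1 to 5 for those of the wild-type and Rnaset2-/- liver, and 1 to 3, 4 to 6, 1 to 4 and 2 to 5 for the interactions of organ in Ly6Chi, organ in Ly6Clow, subset in spleen and subset in liver. The replicate block lowered the count for splenic Ly6Clow macrophages from 2 to 1 and ended the organ interaction of Tlr3 in Ly6Clow macrophages (1.53, adjusted p = 0.111). In liver against spleen for wild-type Ly6Chi macrophages it added Tlr3 (-0.78, adjusted p = 0.0312). The block changed no other call of a member besides those given for KCs. The fewest reads behind a member's value were 21, and no comparison was run at equal depth.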
